A study of Homo sapiens with 18 samples.

Results

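The genes described here encode the proteins of the large subunit of the human cytosolic ribosome. They are 44 of the 19970 protein-coding genes on chromosomes 1 to 22 and X, taken by symbol from the RefSeq gene table (GRCh38.p14). A gene was counted as having a MAX peak when the summit of a deposited peak lay inside the gene or within 2500 bp of either outer end.

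The study mapped MAX on chromatin in U2OS, a human osteosarcoma line, by ChIP-Rx, which is chromatin immunoprecipitation and sequencing with cells of another species added as a reference. All groups shared the same background, U2OS-MYC-KO, in which MYC was knocked out, and carried a Tet-On construct for wild-type (WT), 3A or 7A MYC. The labels do not say which residues 3A and 7A change, nor whether a line is 1 clone. Each form was studied with doxycycline (Dox, 1 µg/ml for 24 h) and without (PBS for 24 h). That gave 12 immunoprecipitation libraries in 6 groups of 2, and 6 inputs, with 10% of NIH3T3 mouse cells mixed in. The antibody field of the labels names MAX, while their protocol text describes anti-FLAG. The authors deposited 1 peak list for each MYC form, with 34622 peaks for WT, 27294 for 3A and 25159 for 7A. A list does not separate Dox from no Dox or 1 replicate from the other, so no comparison below has a replicate check or a test. Read depth is not carried by the lists.

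MAX is the small partner protein through which MYC binds DNA, and MAX also pairs with the MXD proteins, MNT and MGA. MYC-MAX dimers prefer the E-box CACGTG and bind related hexamers more weakly. Ribosomal protein genes are among the best known MYC-bound genes. Their promoters are very active, usually lack a TATA box, and start transcription within a run of pyrimidines, which gives the messenger RNAs the 5′ terminal oligopyrimidine tract that links their translation to mTOR.

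All 44 genes had a MAX peak in the WT list and all 44 in the 3A list, and 43 had one in the 7A list. Over all protein-coding genes the shares were 70.8%, 67.7% and 66.6%. Peaks in all 3 lists were present at 43 of the 44 genes, against 65.7% of all genes. The exception was RPL28.

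Beyond presence, the peaks were strong ones. Fold enrichment, the peak caller's ratio of signal over background at the summit, had a median over these genes of 41.4 for WT, 33.4 for 3A and 21.7 for 7A. Over all genes with a peak the medians were 17.7, 15.5 and 15.0. Each value is on the scale of its own list, so the position of a peak within that list was used as well. A percentile of 90 means that 90% of the peaks of the same list were no stronger. The strongest peak of each gene was taken, and the median percentile of the large-subunit genes was 95.1 for WT, 94.6 for 3A and 84.5 for 7A. All genes with a peak stood at 74.7, 71.0 and 68.5. In WT 36 of 44 genes had a peak above percentile 90 (23.1% of all genes with a peak). In 3A 28 of 44 did (20.0%), and in 7A 11 of 43 (18.1%). The large-subunit genes stood above the median of all genes in each list, and the margin was smallest in the 7A list.

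**Figure D1:**
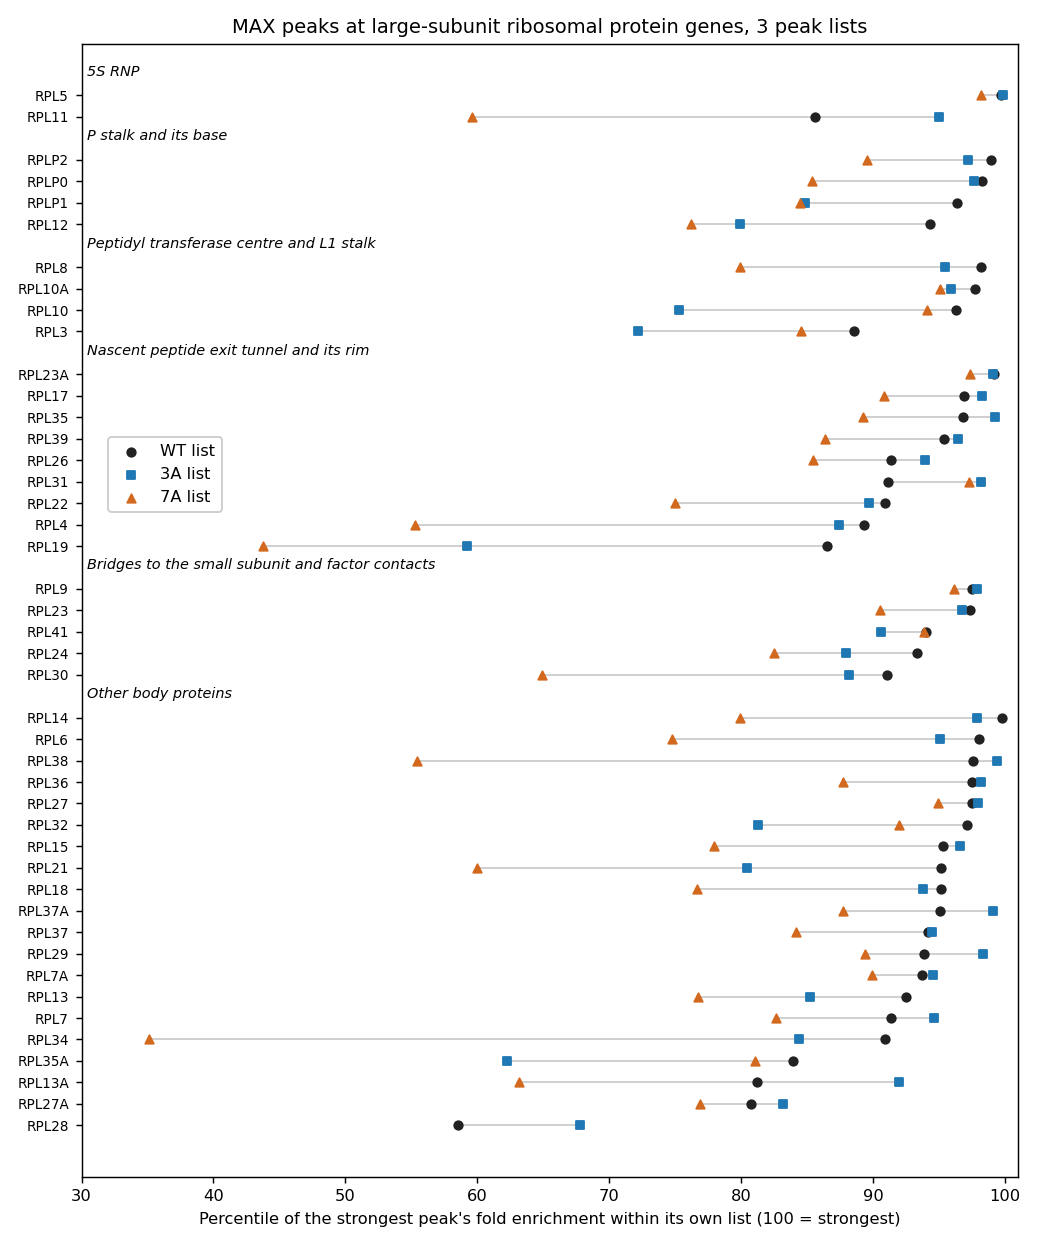
Percentile of the strongest peak at each of the 44 genes within the WT (circle), 3A (square) and 7A (triangle) lists, on an axis from 30 to 100, grouped by where the protein sits in the ribosome. The 7A symbols spread from 35.1 to 98.2, whereas most WT symbols lie above 90; RPL28 has no 7A symbol.

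At nearly all of these genes the same site was listed for each MYC form, as it was at most genes with a WT peak. The strongest WT peak was overlapped by a 3A peak at 43 of 44 genes (91.2% of all genes with a WT peak) and by a 7A peak at 43 of 44 (89.6%). RPL28 was the exception in both. A mutant summit lay within 100 bp of the WT summit at 41 of 44 genes in 3A (78.4%) and at 38 of 44 in 7A (76.3%). Overlap was not counted among genes of like WT strength. The WT summit was inside the gene at 36 of the 44 genes, against 55.1% of all genes with a WT peak. The peaks were also broad, with a median width in WT of 1237.5 bp against 947.0 bp over all genes. The widths were 1004.5 against 831.0 bp in 3A and 999.0 against 898.0 bp in 7A. In WT small-subunit ribosomal protein genes had 1101.0 bp and factors that assemble the large subunit 1132.0 bp. Widths, too, were not compared among genes of like strength.

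At most of these genes the peak had its summit just downstream of the start of transcription. RefSeq lists a start with its sequence for 37 of the 44; RPL5, RPL7, RPL8, RPL23, RPL23A, RPL30 and RPL37 have no entry in the table. All 37 had a peak within 1000 bp of a listed start in WT (61.9% of all genes with a listed start) and in 3A (60.1%), and 36 did in 7A (59.3%). The summit of that start peak was downstream of the nearest listed start, within the transcribed region, at 31 of 37 genes in WT, where 37.2% of all genes with a start peak had it downstream. The counts were 29 of 37 in 3A (32.2%) and 25 of 36 in 7A (31.8%). The shares were nearly the same for strong peaks in general. Among all genes whose start peak was above percentile 90, the downstream shares were 37.1% for WT, 31.0% for 3A and 30.8% for 7A. The median large-subunit summit lay 130 bp downstream in WT, 136 bp in 3A and 111 bp in 7A. The medians over all genes were −48, −60 and −63 bp, a minus sign standing for upstream.

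**Figure D2:**
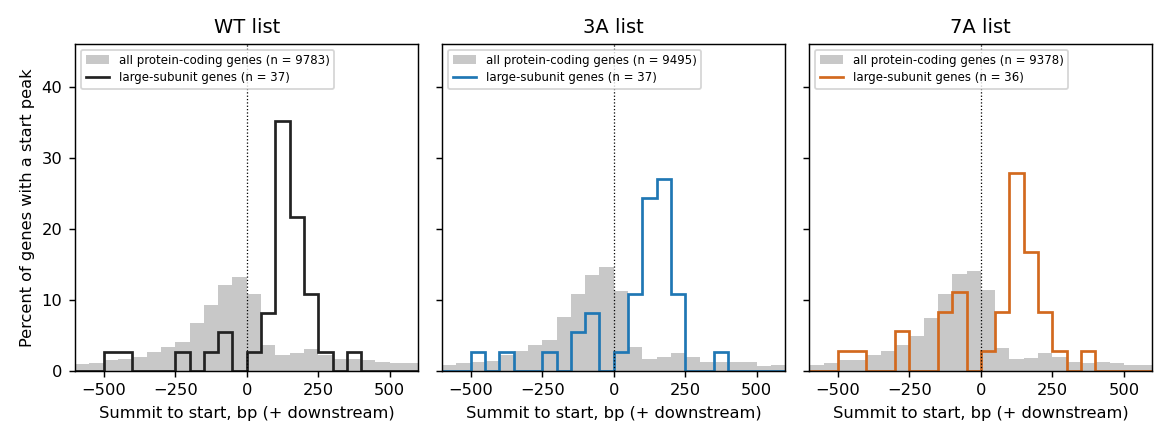
Distance from the listed start to the summit of the start peak, in bp with downstream positive, as the percent of genes with a start peak per 50 bp bin; filled bars are all protein-coding genes and lines the large-subunit genes, with distances beyond the plotted range not drawn. The large-subunit genes gather downstream (medians 130, 136 and 111 bp), and all genes gather just upstream of the start.

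The same measure was taken in 3 related gene groups. Small-subunit ribosomal protein genes had summits downstream at 14 of 23 genes in WT, 11 of 23 in 3A and 10 of 22 in 7A, with medians of 147, −37 and −1 bp. Genes of the mitochondrial large subunit had medians of −3, −24 and −18 bp. Factors that assemble the large subunit in the nucleolus had medians of 5, 0 and −6 bp. The difference between the groups was not tested.

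At most of the genes the summit was in nearly the same place in the 3 lists. Among the 36 genes with a start peak in every list, the median range of the 3 summits was 25 bp, and 28 genes kept them within 50 bp. At 25 genes all 3 summits were downstream. These ranges and sides were not counted over all genes, so they do not set this group apart. RPL10, RPL31 and RPL14 had the tightest, with ranges of 3, 4 and 6 bp. The genes whose summits lay on different sides of the start were RPL13, RPL18, RPL24, RPL27A and RPL34. RPL34 had its summit 177 bp downstream in WT and 163 bp downstream in 3A, but 111 bp upstream in 7A. RPL18 had it 146 and 151 bp downstream in WT and 3A and 273 bp upstream in 7A. In all 5 genes the 7A summit was the upstream one, and in RPL13 and RPL27A the 3A summit was upstream too. RPL6, RPL13A, RPL26, RPL27, RPL31 and RPLP2 had all 3 summits upstream of the listed start. RPL6 and RPL27 have outer gene ends further upstream, so that at these genes the summits were still inside the gene. With the outer gene end taken as the start, 33 of 37 summits were downstream in WT, 31 of 37 in 3A and 27 of 36 in 7A, against 42.9%, 38.7% and 38.3% of all genes.

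Most of these genes have the pyrimidine run at the listed start. A run of at least 8 pyrimidines within the 20 bases from 5 before the listed start to 14 after it was present at 29 of 37 large-subunit genes and at 10.9% of all genes with a listed start. The examples are genes whose peaks are described below; capitals mark the pyrimidine run, each line reads 5′ to 3′ on the strand of the gene, and positions are GRCh38.p14.
RPL7A (chr9:133348213-133348232, plus strand): CTTTCCTTTCTCTCTCCTCC
RPL31 (chr2:101002284-101002303, plus strand): gcgCTCTTCCTTTCCaactt
RPL35 (chr9:124861943-124861962, minus strand): aCTTCCTCTTTCCCTCggag
RPL38 (chr17:74203673-74203692, plus strand): tcgTTCTTTTTCgtcctttt
RPL27A (chr11:8682787-8682806, plus strand): CCTTCCTTTTTCgtctgggc
RPLP2 (chr11:809962-809981, plus strand): gCCTTCCTTTTCCTCCCTgt
The downstream summit was seen with and without the run. In WT it was downstream at 25 of the 29 large-subunit genes with a run and at 6 of the 8 without, while over all genes with such a run and a start peak it was downstream at 457 of 1173 (39.0%).

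Few of these promoters hold the canonical E-box. In the window from 250 bases before to 50 bases from the listed start, searched on both strands, CACGTG was present in RPL13A and RPL19, which are 2 of 37 genes against 10.9% of all genes. The related hexamer CACGCG was present in 10 (27.0%, against 18.1%), CACGAG in 4 (10.8%, against 9.63%) and CACATG in 3 (8.11%, against 11.5%). TATAAA was found in 3 genes (8.11%, against 12.4%). CCGGAA, the core that ETS-family factors read, was found in 20 (54.1%, against 26.6%). These are letters in a window, not binding sites. The strongest summit itself fell inside the window at 5 of 37 genes in WT, 8 of 37 in 3A and 7 of 36 in 7A, so for most genes the bases under the summit are not among those searched.

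The promoters shown were chosen for how the hexamers sit against the summits. Capitals mark any of the 4 E-box hexamers named above, in either orientation, and each line reads 5′ to 3′ on the plus strand of GRCh38.p14, which is also the strand of these genes.
RPL13A (chr19:49487358-49487457): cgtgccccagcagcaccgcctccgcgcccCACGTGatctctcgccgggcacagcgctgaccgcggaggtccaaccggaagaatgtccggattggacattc
RPL27 (chr17:42998320-42998349): ttccgcccgcaaCACGAGactcagcaccac
RPL19 (chr17:39200033-39200132): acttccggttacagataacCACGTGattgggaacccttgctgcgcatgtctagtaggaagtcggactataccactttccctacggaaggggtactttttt
RPL14 (chr3:40457189-40457338): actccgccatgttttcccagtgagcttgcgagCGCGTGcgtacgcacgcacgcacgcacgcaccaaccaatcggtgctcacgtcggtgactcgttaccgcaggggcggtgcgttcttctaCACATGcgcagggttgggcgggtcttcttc
RPL31 (chr2:101002100-101002199): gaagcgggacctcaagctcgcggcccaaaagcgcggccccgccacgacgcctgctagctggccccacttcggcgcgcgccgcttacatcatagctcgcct
In RPL13A the centre of the CACGTG was 2.5 bp from the WT summit, 15.5 bp from the 3A summit and 55.5 bp from the 7A summit. In RPL27 the CACGAG lay 0.5, 14.5 and 6.5 bp from them. The CACGTG of RPL19 was 532.5, 486.5 and 534.5 bp away, and the nearer hexamer of RPL14, which had the strongest WT peak of the group, was 251.5, 248.5 and 254.5 bp away. RPL31 holds none of the 4 hexamers in the stretch shown, where all 3 of its summits fall.

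Nearly all of the genes stood at a lower percentile in the 7A list than in the WT list, while in the 3A list they were spread to both sides. The strongest peak stood at a lower percentile in 3A than in WT at 24 of 44 genes (58.6% of all genes with a peak in both lists), with a median difference of −0.63 points. In 7A it stood lower at 42 of 43 genes (64.2%), with a median of −9.43 points. Over all genes the medians were −2.65 and −4.70 points. The lists differ in length, which shifts percentiles, so the lists were also reduced to the 25159 peaks with the highest −log10 q. On that footing 20 of 44 genes stood lower in 3A (47.2% of all genes) and 38 of 43 in 7A (47.8%), with medians of 0.24 and −7.75 points. Over all genes the medians were then 0.77 and 0.68 points.

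Over all genes, those with a strong WT peak more often stood lower in the mutant lists. The large-subunit genes were therefore also set beside all genes whose WT peak was above percentile 90. Of the 36 large-subunit genes in that range, 20 stood lower in 3A (74.6% of all such genes) and 35 in 7A (78.8%). The median 7A difference was −9.26 points against −4.87 over all such genes. In lists of equal length 14 of 29 stood lower in 3A (69.4%) and 28 of 29 in 7A (71.5%), where the medians for 7A were −7.37 and −3.10 points. Within the large-subunit genes the share standing lower in the lists as deposited hardly changed with this limit. In 3A it was 55.56% with the limit and 54.55% without, and in 7A 97.22% and 97.67%. The same 7A list comes into every 7A value, so a property of that list cannot be told apart from the MYC form.

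**Figure D3:**
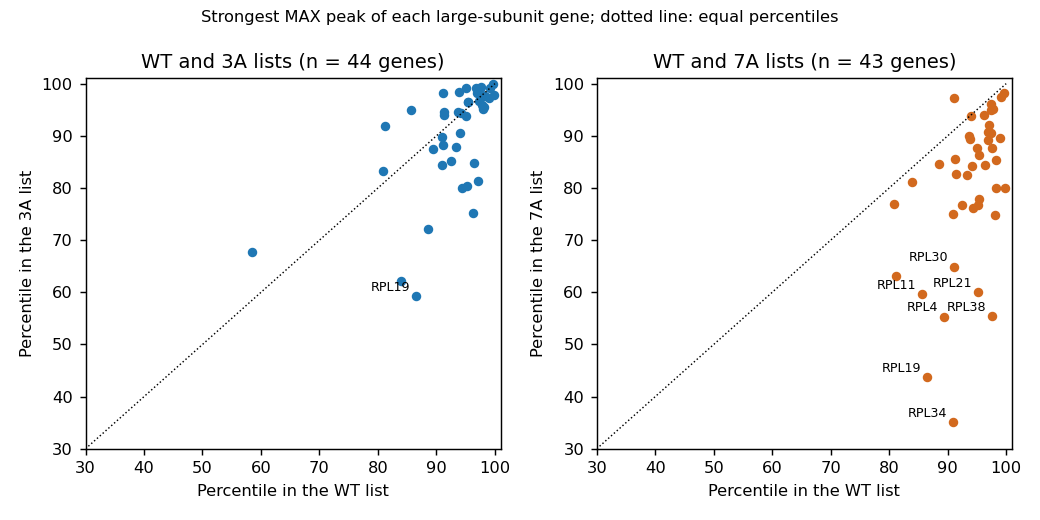
Percentile of the strongest peak in the WT list against the 3A list (left, 44 genes) and the 7A list (right, 43 genes), on axes from 30 to 100; each point is a gene, the dotted line marks equal percentiles, and names mark the widest gaps below it. In 3A 24 of 44 points lie below the line, and in 7A 42 of 43 do, RPL31 being the one above. The lists are as deposited, and with lists of equal length, not drawn, 38 of 43 genes stood lower in 7A.

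The 5S particle, in which RPL5 and RPL11 hold the 5S ribosomal RNA, is also the part of the ribosome that binds MDM2 when assembly fails. RPL5 had one of the strongest peaks in every list, with a fold enrichment of 100.6 for WT, 104.1 for 3A and 52.0 for 7A and percentiles of 99.7, 99.8 and 98.2. Its summit also lies within 1000 bp of an end of DIPK1A. RPL11 (chr1:23691779-23696835) had 24.9, 34.6 and 12.9, at percentiles of 85.6, 95.0 and 59.6. The pair therefore parted in the 7A list, where RPL5 stood near the top and RPL11 stood below the median of all genes with a peak.

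The P stalk recruits the translation factors that hydrolyse GTP. RPLP0 carries the RPLP1 and RPLP2 dimers, and RPL12 sits at its base. RPLP2 (chr11:809967-812876), whose summits are shared with the neighbouring PIDD1, had a fold enrichment of 74.0 for WT, 42.5 for 3A and 25.9 for 7A. RPLP0 had 61.8, 45.1 and 22.3, but that peak lies 1917 bp beyond the 3′ end in WT, close to GCN1, and the peak at the start of RPLP0 had 30.9, 43.4 and 20.6. RPLP1 had 46.9 in WT against 21.6 in 3A and 21.7 in 7A. RPL12 had 38.9, 18.7 and 17.5. All 4 stalk genes stood at a lower percentile in both mutant lists than in WT, with medians of 97.3 for WT, 91.0 for 3A and 84.9 for 7A. The peak at the start of RPLP0, by contrast, stood at percentiles of 90.6, 97.3 and 82.7.

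RPL3 and RPL8 reach the peptidyl transferase centre, where peptide bonds form. RPL10 joins the subunit late in its assembly, and RPL10A forms the mobile L1 stalk beside the E site. In this group the median percentiles were 97.0 for WT, 85.4 for 3A and 89.3 for 7A. The 3A median was the lowest, but the genes were split. RPL10 (chrX:154398065-154402339) had a fold enrichment of 46.3 for WT, 16.9 for 3A and 33.0 for 7A, so its percentile was 96.3, 75.3 and 94.1. RPL3 showed the same order, with 28.2, 15.8 and 21.7, although its strongest WT and 3A peak lies 8561 bp from the listed start, beyond the 3′ end. The peak at the start of RPL3 had 26.6, 15.6 and 21.7. RPL8 had 61.4, 35.7 and 19.1, and RPL10A had 56.3, 37.3 and 35.8. Both stood lowest in 7A, RPL8 at percentiles of 98.2, 95.4 and 79.9 and RPL10A at 97.75, 95.9 and 95.1.

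Proteins lining the exit tunnel and its rim guide the nascent chain and receive the factors that target and modify it. Here the medians were 91.3 for WT, 96.5 for 3A and 86.3 for 7A. The 3A median was the highest, although 4 of the 9 genes stood lower in 3A than in WT. RPL23A, a docking site for the signal recognition particle, had a fold enrichment of 78.5, 62.7 and 45.5, though in 7A the strongest summit was a different one near RAB34. RPL31 (chr2:101002289-101019724) had 31.8 for WT, 48.6 for 3A and 45.0 for 7A, at percentiles of 91.1, 98.2 and 97.3. In the lists as deposited RPL31 alone among the 43 genes stood at a higher percentile in 7A than in WT. With lists of equal length 38 of the 43 stood lower in 7A, so it was not the only exception there. RPL35 stood at its highest percentile in 3A, with fold enrichments of 49.8, 65.1 and 25.5, from a summit shared with ARPC5L. RPL19 (chr17:39200283-39204732) stood lower in both mutant lists. Its fold enrichment was 25.7, 12.7 and 10.1, and its percentile 86.5, 59.2 and 43.7, the widest gap of all 44 genes in 3A. RPL4, whose loop narrows the tunnel, had 29.1, 23.5 and 12.0 and percentiles of 89.3, 87.4 and 55.3. The WT and 3A values are from the peak at the start, but the strongest 7A peak of RPL4 was a different one. It lies 7032 bp from the listed start, beyond the 3′ end and near SNAPC5. The 7A peak at the start of RPL4 had 11.9, at percentile 54.5. Of the remaining tunnel genes, RPL17, RPL39, RPL26 and RPL22 ranged in WT from 31.4 to 50.1, and each stood lower in 7A than in WT. The strongest RPL26 summit was 498 bp upstream of the listed start in WT and over 1000 bp upstream in 3A and 7A, where the start peak had 17.9 and 15.6.

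Proteins at the face towards the small subunit form bridges or contact translation factors. RPL9 had a fold enrichment of 54.1 for WT, 46.7 for 3A and 39.4 for 7A and kept percentiles of 97.5, 97.9 and 96.2. RPL41, the smallest ribosomal protein, had 38.1, 26.7 and 32.7, but those peaks lie beyond its 3′ end, in WT and 3A near ZC3H10. The peak at the start of RPL41 had 19.2, 16.9 and 15.7. RPL30 had 31.8, 24.2 and 14.1 and stood at percentile 64.9 in 7A. RPL23 had 53.2, 40.3 and 27.1, and RPL24 36.4, 23.9 and 20.5.

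The other 20 proteins make up the body of the subunit, and this group held both the strongest and the weakest WT peak. RPL14 (chr3:40457339-40468587) had a fold enrichment of 113.2 for WT, 46.5 for 3A and 19.1 for 7A, at percentiles of 99.8, 97.9 and 79.9. The order was the same for RPL6, with 59.2, 34.7 and 16.9. RPL38 (chr17:74203678-74210655), known for its part in the translation of Hox messenger RNAs, had 54.9, 71.3 and 12.0. Its percentile was 97.6 for WT, 99.4 for 3A and 55.4 for 7A, so that 7A stood apart from both other lists. RPL34 (chr4:108620576-108630484) had 31.5, 21.3 and 8.89 and the lowest 7A percentile of all, 35.1 against 90.9 in WT. RPL21 had 41.7, 19.0 and 12.9, with a 7A percentile of 60.0. At these 5 genes the summits of the 3 lists lay within 94 bp of each other, apart from RPL34, whose 7A summit was the upstream one.

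The percentile of RPL32 and of RPL35A was lower in 3A than in WT or 7A. RPL32 had a fold enrichment of 51.9 for WT, 19.5 for 3A and 29.1 for 7A. RPL35A had 23.4, 13.3 and 19.7. RPL13A and RPL29 were among the 5 genes whose 3A percentile was furthest above their WT percentile. RPL13A, a protein that can leave the ribosome and silence inflammatory messenger RNAs, had 21.3, 28.7 and 13.6, and RPL29 had 37.8, 50.6 and 25.8. RPL27A, among the 4 lowest in WT, had 21.0, 20.6 and 17.8, and its strongest 7A peak was not the one at the start, which had 11.4.

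RPL28 (chr19:55385932-55403342) had the weakest WT peak. The strongest WT value, 12.5, was at a summit 1636 bp upstream near TMEM238, and the peak at the start of RPL28 had 9.02. In 3A the start peak had 14.6, and in 7A no summit met the rule. The nearest 7A summit was 4826 bp outside the gene, with a fold enrichment of 31.4. The summit closest to the inner side of the 2500 bp limit was a second peak near RPL8, at 2343 bp in WT with 23.6, and the closest beyond it was near RPL38, at 2840 bp with 18.1. Both genes also had a stronger peak well inside the limit.

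The remaining 9 body genes (RPL7, RPL7A, RPL13, RPL15, RPL18, RPL27, RPL36, RPL37 and RPL37A) had WT fold enrichments between 32.1 and 54.5. RPL7A had 37.3, 33.4 and 26.3, RPL27 had 54.1, 47.2 and 35.2, and RPL37A, at its highest percentile in 3A, had 41.2, 62.9 and 24.1. All of them stood at a lower percentile in 7A than in WT.

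Counted over the genes with a peak in all 3 lists, 24 of 43 stood lower in both mutant lists than in WT (46.9% of all such genes), and with lists of equal length 17 of 43 did (33.2%). The 7A percentile was below the 3A percentile at 38 of 43 genes (54.9% of all genes with a peak in both), and at 37 of 43 with lists of equal length (50.3%). A gap of more than 10 points below WT was present at 19 of 43 genes in 7A (37.8%) and at 8 of 44 in 3A (33.0%). With lists of equal length these were 18 of 43 (25.1%) and 8 of 44 (25.1%). Some peaks were shared with neighbouring genes: the strongest WT summit was within 1000 bp of an end of another protein-coding gene at 13 of the 44 genes, near the 23.8% of all genes with a WT peak.

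**Figure D4:**
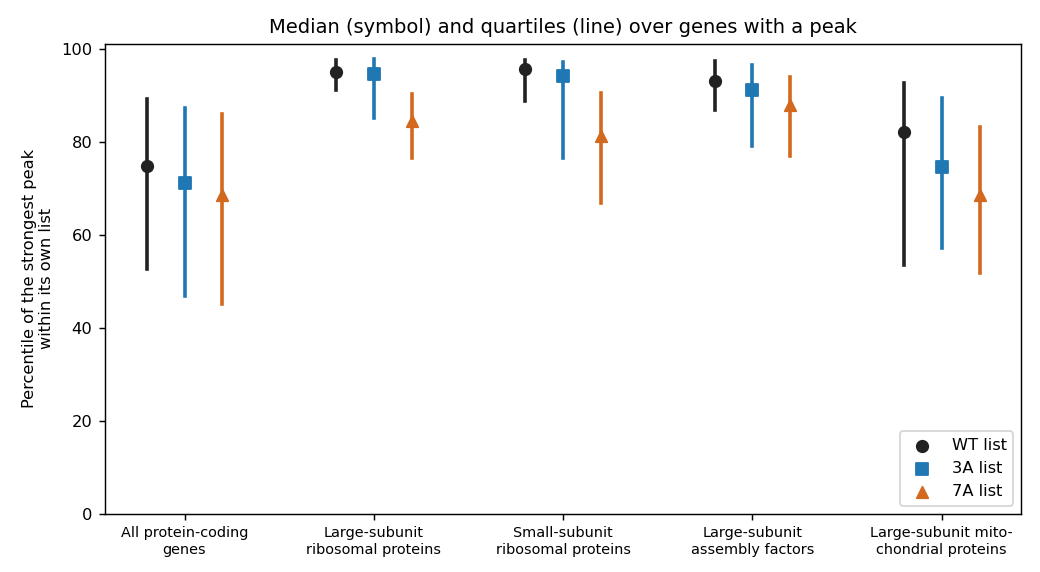
Median (symbol) and quartiles (line) of the percentile of the strongest peak within its own list, over the genes with a peak, for all protein-coding genes and 4 groups of ribosome genes in the WT, 3A and 7A lists. The medians of the large-subunit genes (95.1, 94.6 and 84.5) lie near those of the small-subunit genes, and the mitochondrial large-subunit genes lie lower in each list.

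The small-subunit ribosomal protein genes had medians close to those of the large subunit. Peaks were present at 29 of 32 for WT, 29 for 3A and 28 for 7A, with median percentiles of 95.5, 94.2 and 81.2. Their percentile stood lower in 7A than in WT at 25 of 28 genes (64.2% of all genes with a peak in both lists) and in 3A at 18 of 29 (58.6%). With lists of equal length these were 23 of 28 (47.8%) and 13 of 29 (47.2%). The assembly factors had peaks at 41 of 42 genes in each list, SBDS being the one without, and medians of 93.0, 91.0 and 87.9. RRP1B, RPF2 and MDN1 had their highest WT values, 207.9, 90.4 and 85.2. Genes of the mitochondrial large subunit had peaks at 47 of 49 in WT and 46 in each mutant list, with medians of 82.0, 74.5 and 68.5. In the lists as deposited the 7A median therefore stood below the WT median in each of these groups, as it did over all genes. With lists of equal length the medians over all genes were 69.0 for WT and 68.5 for 7A. Whether the gaps differ between groups was not tested.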

How the data were processed

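MAX ChIP-Rx peaks of WT, 3A and 7A MYC in U2OS cells were analysed from the 3 lists the authors deposited, 1 for each MYC form. Per the submitters' processing notes, the tools were MACS2, Picard, SAMtools, Bowtie2 and cutadapt and the builds hg38, hg19 and mm10, without roles. Pooling of replicates, the control used and spike-in scaling are not given in the sources used here. Fold enrichment, as deposited, is a linear ratio for each peak. The authors' −log10 q and score were deposited with it, the score being an integer form of the −log10 q. Positions match hg38 and count from 1.

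Each gene received its strongest peak with a summit in the gene or within 2500 bp of an outer end (Python 3.11.15, pandas 2.3.3, NumPy 2.4.6), and percentiles were taken within a list. Background values are over 19970 protein-coding genes, or the 15811 with a RefSeq promoter sequence. The assignment of peaks to genes and the ranking within a list were tested on simulated peaks, and the other steps were not. There are no replicate lists, so counts and medians are given without tests.

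The members and gene lists were chosen with earlier results of these data known. Genes were named where they had the 8 highest or 4 lowest WT values, lacked a peak, had the 5 largest percentile differences in either direction, or belong to the 5S particle or P stalk; the others were named after their values were seen. The summit positions, the pyrimidine run, the hexamers beyond CACGTG and CACGCG, the set with WT peaks above percentile 90 and the counts of gaps over 10 points were chosen after seeing the data. Alternatives covered the window, the ranking, a −log10 q of at least 10, equal list lengths, the overlap, the motif and the start.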

Additional observations from a re-analysis of the deposited data

How the results depend on the processing

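Presence of a peak varied little with the rule: 42 to 44 of the 44 genes had one in each list or in all 3 under the other windows, a −log10 q of at least 10 and equal list lengths, and 36 or 37 of the 37 genes with a listed start. Over all genes the shares under these settings ranged from 52.9% to 70.7%. For all genes with a listed start they ranged from 57.8% to 61.9%. Within 1000 bp of an outer end RPL7 had no peak in WT or 3A. The median percentile, 95.1 in WT, 94.6 in 3A and 84.5 in 7A, was 95.8, 94.1 and 86.8 when peaks were ranked by −log10 q, and 87.9, 88.8 and 72.6 when genes were ranked among genes with a peak. With a summit within 1000 bp of an outer end it was 94.3 in WT and 82.7 in 7A. With a summit within 1000 bp of a listed start, chosen for the ranks after seeing the data, it was 94.3, 93.8 and 81.8. With lists of equal length it was 93.2 in WT and 94.1 in 3A, while all genes with a peak stood at 69.0, 69.6 and 68.5 in WT, 3A and 7A. The 7A median was the lowest under each of these settings. The cause of the shifts was not tested. Overlap of 50% of both peaks left 41 of 44 strongest WT peaks matched in 3A (84.9% of all genes with a WT peak) and 41 in 7A (85.2%). Counting CACGCG with CACGTG took the genes with a hexamer in the promoter window from 2 to 11 of 37, against 26.2% of all genes. No paired analysis was possible because the lists carry no replicates, and for the same reason no replicate could be left out. Without replicate lists or read depth, no difference between MYC forms has an error here.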

Other observations

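RPL39L, a copy of RPL39 best known from the testis, stood apart from its parent gene and was named after its values were seen: its fold enrichment was 16.8 for WT, 47.2 for 3A and 56.1 for 7A, while RPL39 had 42.8, 39.3 and 23.0.

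Small nucleolar RNAs, which guide the modification of ribosomal RNA, lie inside 19 of the 44 genes. The hosts had median percentiles of 94.3 for WT, 88.2 for 3A and 85.4 for 7A, and the 25 other genes had 95.1, 95.4 and 82.7. The 10 genes of the group linked to Diamond-Blackfan anaemia, an inherited failure of red cell production, had 95.2, 97.2 and 87.3. Of these, 2 stood at a lower percentile in 3A than in WT (58.6% of all genes) and 9 did so in 7A (64.2%). With lists of equal length the counts were 2 (47.2%) and 8 (47.8%). Neither grouping was tested.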
